A study of Mus musculus with 18 samples.

Results

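The 10 genes described here, Cdkn1a, Mdm2, Ccng1, Bbc3, Bax, Trp53inp1, Sesn2, Fas, Phlda3 and Zmat3, are well known targets of the transcription factor p53. They were chosen by gene symbol, and all 10 were found among the 39179 genes of the count tables and passed the filter on low counts. RNA was sequenced in 18 libraries of MC38, a mouse colon adenocarcinoma cell line from C57BL/6, in 6 groups of 3. Cells with intact Apc and cells in which Apc was deleted were either left untreated or kept for 24 or 48 h in 1 µM doxycycline, given to induce a short hairpin RNA against Tdo2. Apc encodes a tumour suppressor that keeps beta-catenin low, and Tdo2 encodes a tryptophan dioxygenase. All cells were grown in the same medium with serum tested for tetracycline systems. The titles name the hairpin in the treated libraries only, while the protocol also speaks of untreated hairpin cells, so hairpin and doxycycline cannot be told apart. How many clones stand for the APC-deleted line is not given in the sources used here. The libraries are called biological triplicates with no word on separate cultures, so the spread behind each p-value is that between libraries and may be technical.

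p53 is held low in unstressed cells by MDM2, a ubiquitin ligase whose own gene p53 switches on, which closes a feedback loop. When DNA is damaged or other stress is sensed, p53 accumulates, binds sites built of paired half-sites near its targets and raises their transcription. Some products hold the cell cycle, others start apoptosis, and others limit growth or oxidative damage. APC is lost early in most human colon tumours, and p53 function is often lost later. Counts of mRNA show neither the sequence nor the activity of the p53 protein.

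Sequences near the start sites are shown because p53 acts through such sites. RefSeq promoter windows (GRCm38.p6, 250 bases before to 50 after the start) were given for 8 of the 10 genes, in 11 windows, and not for Trp53inp1 and Zmat3. Each was searched for the p53 half-site consensus of 10 bases, which reads the same on both strands. A perfect half-site lay in 4 of the 11 windows (36.4%), those of Bax, Ccng1, Cdkn1a and Mdm2. It lay in 8.36% of the 32851 windows of all genes. Adjoining half-sites with at most 3 mismatches over 20 bases lay in 2 of the 11 windows (18.2%), those of Cdkn1a and Bbc3, and in 0.572% of all windows. The 10 genes were chosen as known p53 targets, so these shares are not a result of the present data. In Cdkn1a a window from 100 to 11 bases before the start (chr17:29090879-29090968, plus strand) held a perfect half-site that stood alone. After it came adjoining half-sites with 1 mismatch, of which the first was perfect too. Capitals mark the matches:
Cdkn1a: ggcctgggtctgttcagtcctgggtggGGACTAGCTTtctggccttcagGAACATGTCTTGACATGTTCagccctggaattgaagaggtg
The adjoining half-sites of Bbc3 (chr7:16309486-16309505, plus strand) had 3 mismatches:
Bbc3: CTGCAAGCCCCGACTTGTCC
The perfect half-sites of Mdm2 (chr10:117710925-117710954), Ccng1 (chr11:40755452-40755481) and Bax (chr7:45467080-45467109), all on the minus strand, are shown with 10 bases on each side, with the match in capitals:
Mdm2: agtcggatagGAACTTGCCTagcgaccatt
Ccng1: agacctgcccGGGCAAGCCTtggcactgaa
Bax: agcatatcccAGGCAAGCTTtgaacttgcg
A match is a description of these letters, and a window without one says nothing of sites elsewhere in a gene.

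Levels are given as CPM, the count of a gene scaled, with edgeR's TMM factors, to the library's counts in the genes that passed the filter. Libraries held between 71970499 and 111948430 counts in genes, and the lowest count of any of the 10 genes in a library was 443, for Fas. Tdo2 had 6 to 29 counts per library and passed the test in none of the 9 comparisons made. Apc was lower in the APC-deleted line, at 75.2 ± 3.77 CPM (SD, n = 3) against 112 ± 14.1 without doxycycline, although counts per gene do not show which exons were deleted. Replicate 1 of APC-intact cells at 24 h and replicate 2 of APC-deleted cells at 48 h stand apart from the rest on principal components, and so, on the third component, does APC-intact 24 h replicate 2. Fits were made without the first 2 of these libraries and, as an alternative added after seeing the data, without all 3, which leaves 1 APC-intact library at 24 h. The epithelial markers Epcam, with at most 1 count, and Cdx2, with 0 in all 18 libraries, were at or near 0, and the 10 epithelial markers summed to 1.84 to 5.44 CPM. The 9 fibroblast markers, led by collagen genes, summed to 3528 to 3722 CPM in untreated APC-intact cells, 2851 to 2957 at 24 h and 2728 to 2763 at 48 h. In APC-deleted cells they summed to 4210 to 4667, 3489 to 3597 and 3426 to 3484 CPM, and Thy1 had at most 1 count. Among 10 haematopoietic markers the defining ones named here were at or near 0, with at most 4 counts for Ptprc, 1 for Cd3e and 0 for Adgre1. Their sum of 10.6 to 23.5 CPM came mostly from Cd68, a lysosomal protein gene, at 9.42 to 22.8 CPM. Cd68 was higher in APC-deleted cells (0.43 untreated and 0.64 at 48 h, log2) and lower with doxycycline (-0.51 and -0.60 in APC-intact, -0.41 and -0.40 in APC-deleted cells), all with edgeR adjusted p under 0.05. Lyz2, also haematopoietic and at most at 1.69 CPM, went the other way between the lines (-1.54 and -0.90). Of 4 epithelial markers tested 1 was higher and 1 lower between the untreated lines (1 and 2 at 48 h). The higher was Krt8 (0.99 at both times), which fell with doxycycline (-0.85 and -0.88 in APC-intact, -0.60 and -0.88 in APC-deleted cells). Both Cd68 calls with doxycycline in APC-deleted cells, and the Krt8 call at 24 h there, were lost on leaving out 1 library. The fibroblast sums, Cd68 and Krt8 moved with line and treatment, and their part in the results was not tested. A mark in the file names was read here as parting 2 sets of 9 libraries. By it the untreated groups and APC-intact cells at 24 h form 1 set, and the other 3 groups the other. APC-intact cells at 48 h, and APC-deleted cells at both times, therefore differ from their untreated cells in the set as well, and set and treatment cannot be told apart there.

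Per kilobase of exon, Bax was the most abundant of the 10 mRNAs, with a mean over all libraries of 52.1 CPM per kb, followed by Ccng1 (37.5). Mdm2 (14.4), Sesn2 (13.8) and Phlda3 (13.5) were intermediate. Bbc3 (7.25), Zmat3 (5.90), Cdkn1a (5.72), Fas (4.41) and Trp53inp1 (1.45 CPM per kb) were lower. The ratio of the highest to the lowest library was 2.81 for Trp53inp1 and 2.32 for Fas, and from 1.23 for Mdm2 to 1.88 for Bbc3 among the other 8. Of the 10 genes, Cdkn1a and Trp53inp1 had no overlap between the 9 APC-intact and the 9 APC-deleted libraries, beside 15.3% of all genes tested (7.81% higher and 7.46% lower in APC-deleted cells), so the count of 2 is near the background.

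**Figure D1:**
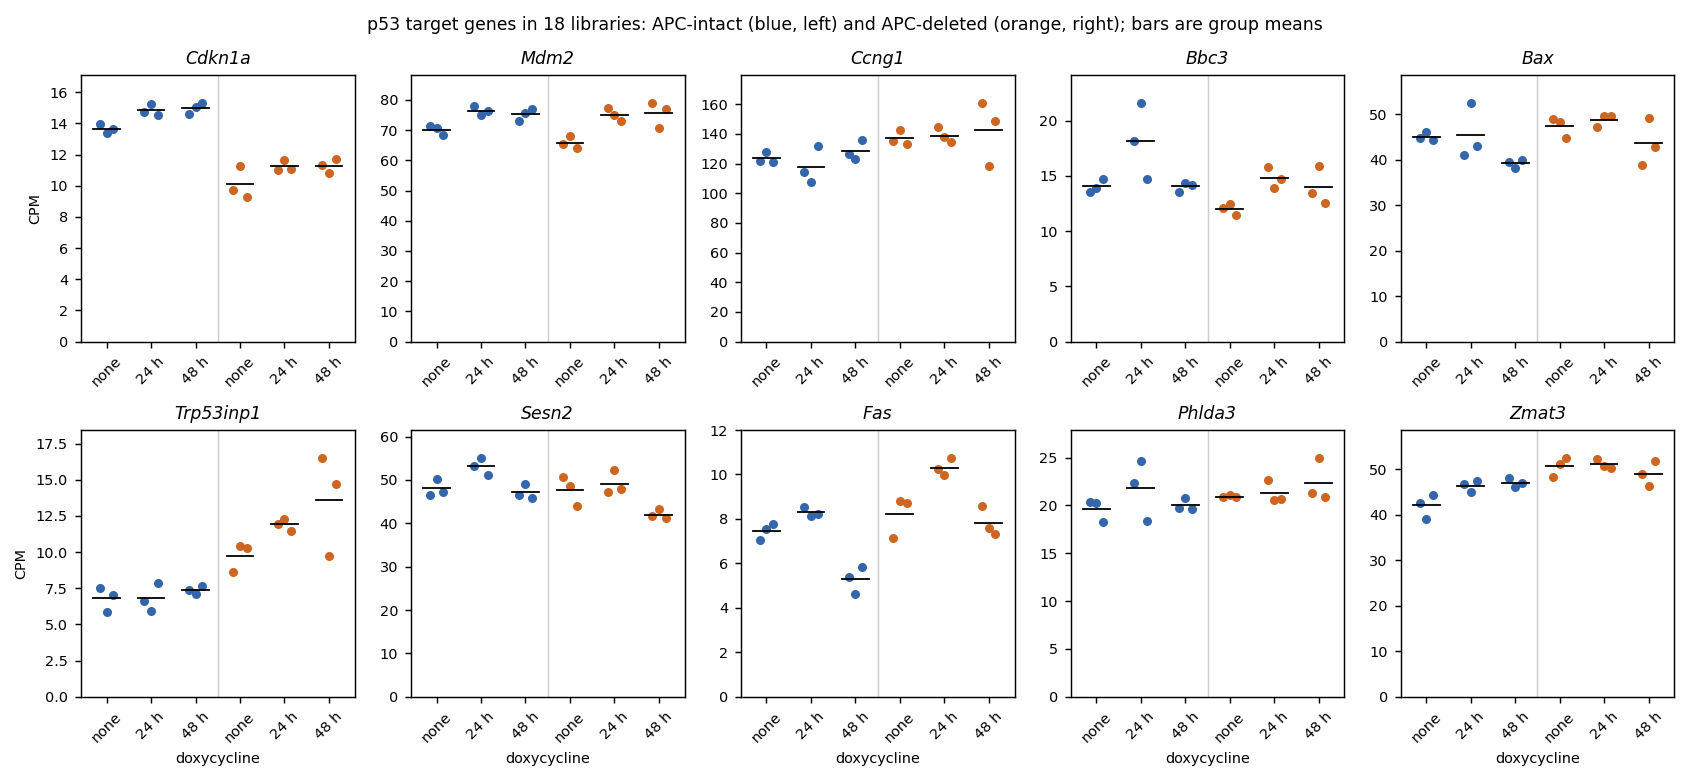
CPM of each of the 10 p53 targets (vertical axis, starting at 0) in the 18 libraries by doxycycline time; points are libraries (blue APC-intact, orange APC-deleted) and bars are means of 3. Cdkn1a lies lower and Trp53inp1 higher in every APC-deleted library than in any APC-intact library.

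The lines were compared first without doxycycline, where all libraries lay in the same file set. In APC-deleted cells Cdkn1a was lower, and Zmat3 and Trp53inp1 were higher, by edgeR's quasi-likelihood test with Benjamini-Hochberg adjustment over 15006 genes (adjusted p under 0.05). That is 3 of 10 genes, beside 27.3% of all genes tested (13.4% higher, 13.8% lower), so the count is near the background and is not a result about these genes. At 48 h of doxycycline, again within a file set, 4 of 10 passed, with Cdkn1a and Sesn2 lower and Trp53inp1 and Fas higher, beside 34.7% of all genes (17.8% higher, 16.8% lower). The median log2 fold change over the 10 genes was 0.08 without doxycycline and 0.11 at 48 h, and over all genes it was -0.0044 and -0.00046. The direction differed from gene to gene.

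Cdkn1a (ENSMUSG00000023067, mm10 chr17:29090979-29100722, plus strand) encodes p21, the inhibitor of cyclin-dependent kinases through which p53 holds cells in G1. Untreated replicates 1 to 3 had 13.9, 13.4 and 13.6 CPM in APC-intact cells and 9.73, 11.3 and 9.29 CPM in APC-deleted cells. At 48 h they had 14.6, 15.1 and 15.3 against 11.3, 10.8 and 11.7 CPM. Every APC-deleted library was lower than every APC-intact one, and the 24 h libraries (14.7, 15.2 and 14.6 against 11.0, 11.7 and 11.1 CPM) kept that order. At 24 h the lines lay in different file sets, so line and set cannot be told apart there. The log2 fold change was -0.43 ± 0.067 (SE, edgeR adjusted p = 5.8e-05) without doxycycline and -0.41 ± 0.067 (adjusted p = 8.81e-05) at 48 h, folds of 0.740 and 0.754. Both calls held when any 1 library of the groups compared was left out. Throughout, single libraries were left out only from the groups that a comparison used. Exons of an unmeasured gene on the opposite strand, AC167363.2, overlap Cdkn1a, and the use of strand in counting is not given in the sources used here.

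Trp53inp1 (ENSMUSG00000028211, chr4:11156431-11174379, plus strand) encodes a stress protein that promotes p53-dependent death and autophagy. Without doxycycline the libraries had 7.50, 5.87 and 7.04 CPM in APC-intact cells and 8.59, 10.4 and 10.2 in APC-deleted cells. At 48 h they had 7.37, 7.11 and 7.66 against 16.5, 9.72 and 14.7 CPM. The lines did not overlap at either time, and APC-deleted 48 h replicate 2 lay well below its fellow replicates. The log2 fold change was 0.52 ± 0.148 (edgeR adjusted p = 0.0138) without doxycycline and 0.89 ± 0.147 (adjusted p = 0.000127) at 48 h. The first did not pass when untreated APC-intact replicate 2 (adjusted p = 0.0672) or untreated APC-deleted replicate 3 (0.0534) was left out, over a range of 0.00058 to 0.0672 across all alternatives. The second held with any library left out, between 0.73 and 1.08, and was 1.07 without APC-intact 24 h replicate 1 and APC-deleted 48 h replicate 2, and 1.08 without all 3 libraries that stand apart.

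Zmat3 (ENSMUSG00000027663, chr3:32334796-32365678, minus strand) encodes an RNA-binding zinc finger protein that acts in p53-dependent growth control. Its untreated libraries had 42.6, 39.1 and 44.4 CPM in APC-intact and 48.4, 51.1 and 52.4 CPM in APC-deleted cells, without overlap. The log2 fold change was 0.27 ± 0.054 (edgeR adjusted p = 0.000903), and the call held without any 1 library. At 48 h, with 48.1, 46.2 and 46.9 against 48.9, 46.2 and 51.8 CPM, the lines overlapped and Zmat3 did not pass the test.

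Fas (ENSMUSG00000024778, chr19:34290659-34327770, plus strand) encodes the death receptor that recruits FADD and caspase 8. Without doxycycline the libraries had 7.05, 7.53 and 7.79 CPM in APC-intact and 7.14, 8.82 and 8.73 in APC-deleted cells, which overlapped. At 48 h the values were 5.38, 4.62 and 5.84 against 8.60, 7.58 and 7.33 CPM. All 3 APC-deleted libraries then lay above all 3 APC-intact ones, with a log2 fold change of 0.57 ± 0.096 (edgeR adjusted p = 0.000115) that held without any 1 library.

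Sesn2 (ENSMUSG00000028893, chr4:132492032-132510501, minus strand) encodes sestrin 2, a stress protein that restrains mTORC1. At 48 h its libraries had 46.6, 49.0 and 45.8 CPM in APC-intact and 41.6, 43.4 and 41.1 in APC-deleted cells, without overlap. The log2 fold change was -0.17 ± 0.058 (edgeR adjusted p = 0.0304). The call was lost without APC-deleted 48 h replicate 1 (adjusted p = 0.0861) or 3 (0.112) or APC-intact 48 h replicate 1 (0.0668) or 2 (0.151), and with no filter on low counts (0.0743).

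Among the 7 genes that did not pass without doxycycline, Bbc3 came nearest (-0.22 ± 0.106, edgeR adjusted p = 0.13), and 95% intervals over the 7 ran from -0.45 to 0.34. Bbc3 encodes PUMA, a BH3-only protein that sets off mitochondrial apoptosis. For the 6 that did not pass at 48 h the intervals ran from -0.23 to 0.34.

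**Figure D2:**
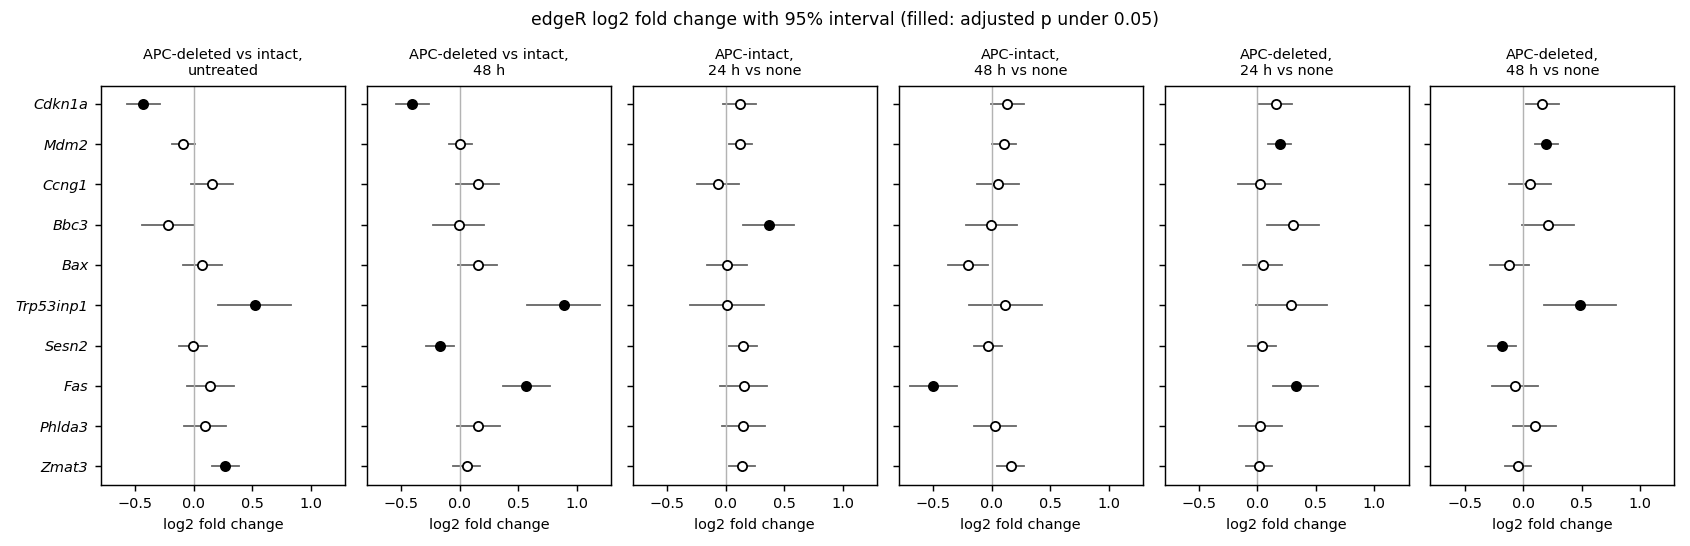
Log2 fold change of each gene (horizontal axis, 95% interval as a line) in 6 comparisons; filled points have an edgeR adjusted p under 0.05. Cdkn1a is negative in both comparisons of the lines, Trp53inp1 positive in both, and Fas falls at 48 h in APC-intact cells.

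Doxycycline was compared with no treatment in each line at each time. In APC-intact cells at 24 h, within a file set, 1 of 10 genes passed the edgeR test, beside 5.64% of all genes (1.39% higher, 4.25% lower). It was Bbc3 (ENSMUSG00000002083, chr7:16309616-16318205, plus strand), with 13.6, 13.9 and 14.7 CPM untreated and 18.2, 21.6 and 14.7 at 24 h. Replicates 1 and 2 were higher than all untreated libraries, and replicate 3 fell among them, so the groups overlapped. The log2 fold change was 0.37 ± 0.105 (edgeR adjusted p = 0.045). It lost the call on leaving out untreated replicate 1 (adjusted p = 0.167), 2 (0.165) or 3 (0.0724) or 24 h replicate 1 (0.126) or 2 (0.158), and at its lowest, without 24 h replicate 2, was 0.22. It was also lost when the fit held these 6 libraries alone (0.182), without APC-intact 24 h replicate 1 and APC-deleted 48 h replicate 2 (0.0609), and without all 3 libraries that stand apart, where the value was 0.058 (adjusted p = 0.716). Mdm2 (0.13 ± 0.049), Zmat3 (0.14 ± 0.054) and Sesn2 (0.14 ± 0.057) had unadjusted p under 0.05 and adjusted p of 0.145 to 0.158. Of the 10 estimates 9 were above 0, with a median of 0.13 beside -0.0043 over all genes.

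At 48 h in APC-intact cells 1 of 10 genes passed, beside 11.3% of all genes (3.81% higher, 7.54% lower). Of the 10 estimates 6 were above 0, with a median of 0.04 beside 0.00050 over all genes. Fas fell from 7.05, 7.53 and 7.79 CPM untreated to 5.38, 4.62 and 5.84, after 8.55, 8.13 and 8.20 CPM at 24 h. All 3 libraries at 48 h were below every other APC-intact library. The log2 fold change was -0.50 ± 0.096 (edgeR adjusted p = 0.00196), a fold of 0.708, and held without any 1 library. Zmat3 (0.16 ± 0.054, adjusted p = 0.0592) and Bax (-0.20 ± 0.081, adjusted p = 0.112) did not pass in this fit. Zmat3 passed with DESeq2 (0.0332), with the replicate block (0.0368), in a fit of the 6 libraries alone (0.0137), with offsets for GC content (0.0443) and without untreated replicate 3 (0.0400). Bax passed in the fit of the 6 libraries alone (0.00131). Bax, which encodes the pore-forming death effector of the mitochondrial membrane, had 44.9, 46.1 and 44.4 CPM untreated and 39.6, 38.2 and 39.9 at 48 h, without overlap. In this comparison the median log2 fold change of the most GC-rich tercile of genes minus that of the least GC-rich was -0.161. With offsets for GC content, an alternative added after seeing the data, Bax was at -0.09 (adjusted p = 0.347) and Fas at -0.56 (0.000276).

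In APC-deleted cells at 24 h 2 of 10 genes passed, both higher, beside 5.85% of all genes (2.08% higher, 3.77% lower). Mdm2 (ENSMUSG00000020184, chr10:117688888-117710758, minus strand) had 65.5, 68.1 and 64.0 CPM untreated and 77.4, 75.0 and 73.0 at 24 h. Fas had 7.14, 8.82 and 8.73 CPM untreated and 10.2, 9.97 and 10.7 at 24 h. Neither overlapped between the groups. The log2 fold changes were 0.19 ± 0.049 (edgeR adjusted p = 0.0254) for Mdm2 and 0.33 ± 0.093 (adjusted p = 0.044) for Fas. For Mdm2 the call was lost without untreated replicate 1 (adjusted p = 0.0874) or 3 (0.107) or 24 h replicate 1 (0.109) or 2 (0.0824). For Fas it was lost on leaving out any of the 6 libraries, with adjusted p of 0.061 to 0.23, the highest without untreated replicate 1. With no filter on low counts neither passed (0.0811 and 0.0526). Bbc3 (0.30 ± 0.106) and Cdkn1a (0.16 ± 0.067) had unadjusted p under 0.05 in edgeR and adjusted p of 0.103 and 0.200. All 10 estimates were above 0, with a median of 0.10 beside -0.0020 over all genes.

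At 48 h in APC-deleted cells 3 of 10 passed, beside 11.0% of all genes (4.52% higher, 6.49% lower). Mdm2 rose to 79.0, 70.6 and 77.1 CPM, above all untreated libraries (0.20 ± 0.049, edgeR adjusted p = 0.0125). Sesn2 fell from 50.6, 48.7 and 44.1 to 41.6, 43.4 and 41.1 CPM (-0.19 ± 0.058, adjusted p = 0.0432). Trp53inp1 rose (0.49 ± 0.146, adjusted p = 0.0387), but its 48 h replicate 2 lay within the untreated range. Cdkn1a (0.16 ± 0.068) had an unadjusted p under 0.05 in edgeR and an adjusted p of 0.136. Of the 10 estimates 6 were above 0, with a median of 0.08 beside -0.0011 over all genes. None of the 3 calls held throughout. That of Mdm2 was lost without untreated replicate 1 (adjusted p = 0.0604) or 3 (0.0553) or 48 h replicate 1 (0.071). That of Sesn2 was lost without untreated replicate 1 (0.185) or 2 (0.126) or 48 h replicate 1 (0.0828) or 3 (0.14). That of Trp53inp1 was lost without any library but 48 h replicate 2, with adjusted p of 0.0667 to 0.182, and without 48 h replicate 1 its value was 0.31. With no filter on low counts Mdm2 (0.0582) and Trp53inp1 (0.113) did not pass. Without APC-intact 24 h replicate 1 and APC-deleted 48 h replicate 2 all 3 passed, with Trp53inp1 at 0.66 (adjusted p = 0.000558), and Bax passed too (-0.23, 0.0218). Calls over all genes in that fit rose by over 1.5 times too, as counted at the end. Without all 3 libraries that stand apart Bax was at -0.23 and Ccng1 at 0.16. In a fit of these 6 libraries alone edgeR called 0 of the 10 genes, with adjusted p of 0.131 for Mdm2, 0.169 for Trp53inp1 and 0.171 for Sesn2.

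In some libraries the deviation of these genes from their group mean ran along GC content. In APC-deleted 48 h replicate 2, Trp53inp1 (38.8% GC in its longest transcript) lay at -0.452 from its group mean (log2 CPM) and Ccng1 (40.8%) at -0.255, while Bbc3 (65.2%) was at 0.193 and Bax (63.5%) at 0.18. APC-intact 24 h replicate 2 had Bbc3 at 0.267 and Bax at 0.214. Over all genes of at least 5 CPM, the median deviation of the most GC-rich tercile minus that of the least GC-rich was 0.263 in the first of these libraries and 0.128 in the second. It was -0.142 in APC-intact 24 h replicate 3 and -0.15 in APC-deleted 48 h replicate 1. With GC offsets the log2 fold change of Bbc3 at 24 h in APC-intact cells was 0.36 (edgeR adjusted p = 0.00176) and that of Trp53inp1 at 48 h in APC-deleted cells 0.42 (0.00831), while Sesn2 there was -0.14 (0.102). With these offsets Ccng1 and Bbc3 also passed between the untreated lines, and Ccng1 between the lines at 48 h. In APC-intact cells Mdm2 and Zmat3 passed at 24 h, and Cdkn1a and Zmat3 at 48 h. In APC-deleted cells Bbc3 passed at 24 h, Cdkn1a and Bbc3 at 48 h, and Fas between 24 and 48 h. Calls over all genes rose by over 1.5 times too at 24 h in both lines. They did so as well between 24 and 48 h in APC-deleted cells.

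**Figure D3:**
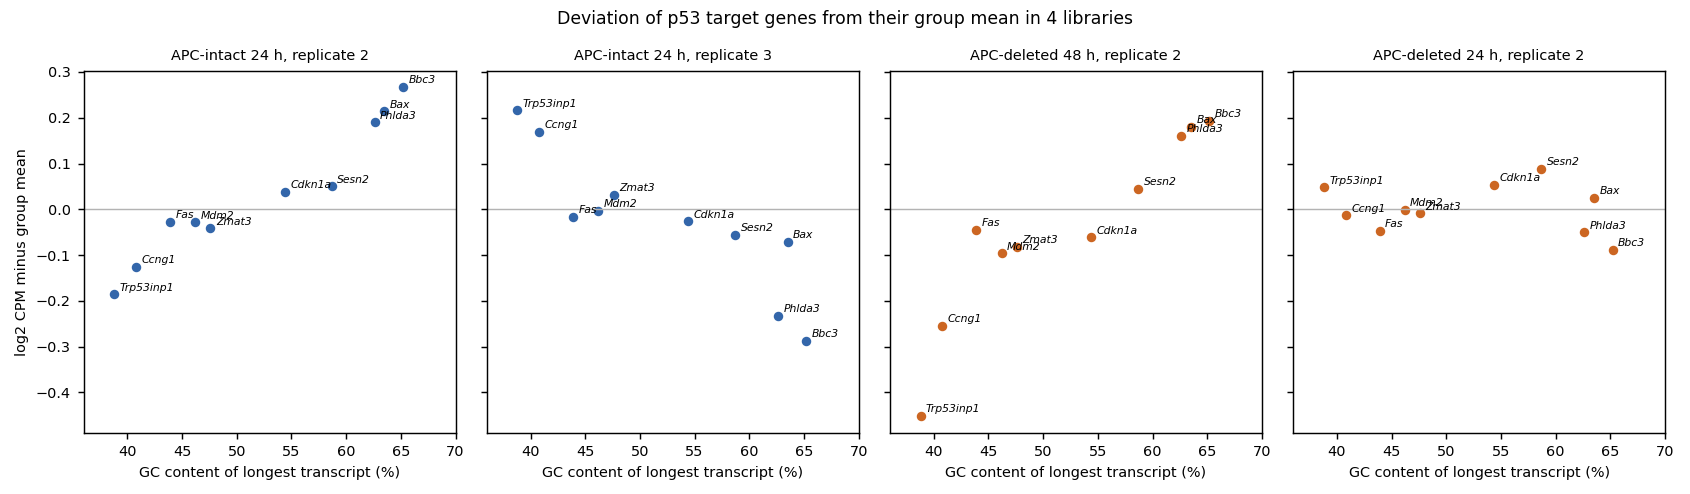
Log2 CPM of each gene minus its group mean (vertical axis) against the GC content of its longest transcript (horizontal axis, percent) in 4 libraries; each point is a gene. The values rise with GC content in APC-intact 24 h replicate 2 and APC-deleted 48 h replicate 2, fall in APC-intact 24 h replicate 3, and show no such slope in APC-deleted 24 h replicate 2.

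Ccng1, Bax and Phlda3 passed in none of the 9 comparisons by edgeR's test on all 18 libraries. Other fits called each of them at least once. Ccng1 passed between the untreated lines in a fit of those groups alone (0.16, adjusted p = 0.00467) and with GC offsets (0.0120), and at 48 h without APC-deleted 48 h replicate 2 (0.27, 0.00306) and with GC offsets (0.00123). Bax passed, besides the fits given above, between the lines at 48 h without APC-deleted 48 h replicate 1 (0.0429), and Phlda3 passed at 24 h in APC-intact cells without 24 h replicate 3 (0.0450). Ccng1 (ENSMUSG00000020326, chr11:40748552-40755311, minus strand) encodes cyclin G1, which acts back on p53 through MDM2, and ran from 108 to 161 CPM. Bax (ENSMUSG00000003873, chr7:45461695-45466898, minus strand) ran from 38.2 to 52.5 CPM, and its exons overlap those of an unmeasured gene on the same strand, Gm45808. Phlda3 (ENSMUSG00000041801, chr1:135766119-135769136, plus strand) encodes a repressor of AKT signalling and ran from 18.2 to 24.9 CPM. For these 3 genes the 95% intervals of the log2 fold changes ran from -0.38 to 0.34 over the 9 comparisons.

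Between 24 and 48 h in APC-deleted cells, within a file set, 0 of 10 genes passed in edgeR, beside 0.520% of all genes (0.0733% higher, 0.446% lower). Fas (-0.40 ± 0.094, adjusted p = 0.0705) and Sesn2 (-0.23 ± 0.057, adjusted p = 0.105) had unadjusted p under 0.05, and DESeq2 called both (0.00846 and 0.0293). Without all 3 libraries that stand apart Bax, Sesn2 and Fas were lower and Trp53inp1 higher, with Bax at -0.27. In that fit calls over all genes rose too, as counted at the end. The test of whether the response to doxycycline differed between the lines called 0 of 10 genes at 24 h and 0 of 10 at 48 h, beside 0.00666% and 0.0267% of all genes (at 48 h 0.0200% higher), and DESeq2 called none of them either. In the 24 h test only the treated APC-deleted cells lay in the other file set, so line response and set cannot be told apart there. In the 48 h test the treated cells of both lines shared a set. At 48 h 2 of 10 had an unadjusted p under 0.05 in edgeR, Fas (0.43 ± 0.135, adjusted p = 0.468) and Zmat3 (-0.21 ± 0.077, adjusted p = 0.562), beside 7% of all genes. At 24 h 0 of 10 did, beside 4.09%. The 95% intervals of the differences ran from -0.38 to 0.72 at 24 h and from -0.37 to 0.81 at 48 h over the 10 genes. The Fas fall in APC-intact cells and its value in APC-deleted cells therefore were not shown to differ after adjustment. The comparisons with untreated cells share the untreated libraries within a line.

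Of 36 other p53 targets, 33 were tested. Between the untreated lines 11 were higher and 3 lower in APC-deleted cells, 42.4% beside 27.3% of all genes, and at 48 h 14 were higher and 3 lower, 51.5% beside 34.7%, with medians of 0.11 and 0.08. Of these calls 8 of 14 and 12 of 17 held with any 1 library left out. Gls2, a mitochondrial glutaminase, was higher (0.97 ± 0.086 and 1.03 ± 0.086), as was Ddb2, a sensor of ultraviolet damage (0.40 ± 0.086 and 0.67 ± 0.086), though exons of each overlap a tested neighbour, Spryd4 and Acp2. The receptor gene Eda2r was lower (-0.49 ± 0.105 and -0.55 ± 0.104). In APC-intact cells 1 of 33 was higher and 3 lower at 24 h (12.1% beside 5.64% of all genes), and 1 and 5 at 48 h (18.2% beside 11.3%), when the kinase gene Plk2 (-0.35 ± 0.048) and the stress gene Gadd45a (-0.33 ± 0.062), whose exons overlap those of E230016M11Rik, fell. In APC-deleted cells 1 was higher and 3 lower at 24 h (12.1% beside 5.85%), and 0 and 2 at 48 h (6.06% beside 11.0%). The values named here kept their calls with any 1 library left out, while of the 4, 6, 4 and 2 calls with doxycycline 1, 2, 0 and 0 did.

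Trp53, which encodes p53, passed in none of the 9 comparisons. Its group means ran from 160 ± 12.7 CPM (SD, n = 3) in APC-intact cells at 48 h to 178 at 24 h, where the libraries ran from 162 to 194. Cdkn2a, whose product ARF restrains MDM2, had 0 counts in all 18 libraries, which allows up to 0.0269 to 0.0406 CPM per library (3 counts, counting error only). Mdm4, a partner of MDM2, had 28.7, 29.4 and 30.9 CPM in untreated APC-deleted cells and 42.2, 34.2 and 43.2 at 48 h, without overlap (0.43 ± 0.134, edgeR adjusted p = 0.0521). It passed with DESeq2 (0.00935), the replicate block (0.0187), RLE size factors (0.0477), GC offsets (0.0237) and the 6 libraries alone (0.0437), and without 48 h replicate 2 (0.0246). In APC-intact cells at 48 h (0.33, adjusted p = 0.123) Mdm4 passed with the replicate block (0.0498) and in a fit of those 6 libraries alone (0.000185), and in APC-deleted cells at 24 h (0.33, 0.181) in the fit of those 6 alone (0.000246). Of 22 tested genes, Trp53 and regulators of p53 together, 2 were higher and 2 lower between the untreated lines (18.2% beside 27.3% of all genes). With any 1 library left out 2 of these 4 calls held. Both are named here. Ppp1r13b, a cofactor that steers p53 to death genes, was higher (0.47 ± 0.051) and the checkpoint kinase gene Chek2 lower (-0.26 ± 0.063). Pml and Daxx, which encode nuclear body proteins, fell at 48 h in APC-intact cells (-0.36 ± 0.049 and -0.35 ± 0.048).

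Among 16 tested cyclins, cyclin-dependent kinases and inhibitors of G1, 2 were higher and 3 lower between the untreated lines, near the 27.3% of all genes, and 3 of these 5 calls held with any 1 library left out. Ccnd2, a D-type cyclin, was higher (1.31 ± 0.059) and Cdkn2d, an inhibitor of CDK4 and CDK6, lower (-1.05 ± 0.087). Ccnd1, another D-type cyclin, was lower in all 4 comparisons with untreated cells, at -0.22 and -0.22 in APC-intact and -0.25 and -0.24 in APC-deleted cells, and kept each call without any 1 library. At 24 h in APC-intact cells the call was lost in a fit of those 6 libraries alone (adjusted p = 0.0966). Its exons overlap those of LTO1 on the opposite strand. Of 18 genes of G2 and M phase, which the DREAM complex represses downstream of p21, 6 fell and 0 rose at 24 h in APC-intact cells, beside 4.25% of all genes lower, and 4 fell at 48 h, beside 7.54%. With any 1 library left out 2 of the 6 calls at 24 h held, and 0 of the 4 at 48 h. The first were Cdc20, an activator of the anaphase-promoting complex (-0.29 ± 0.057), and the mitotic kinesin gene Kif20a (-0.24 ± 0.048). Kif20a did not pass in an edgeR fit of those 6 libraries alone (adjusted p = 0.0949). Exons of Cdc20 and Kif20a overlap tested neighbours on the opposite strand, Elovl1 and Cdc23. In APC-deleted cells 1 fell at 24 h, beside 3.77% of all genes lower, and that call did not hold either. At 48 h in these cells 0 fell, beside 6.49%, so both counts are near the background. At 48 h there edgeR gave 1 of 18 an unadjusted p under 0.05, beside 26% of all genes. The difference between the lines was tested and called 0 of 18 at either time. At 24 h that difference cannot be told apart from one of file set. At 24 and 48 h 3 and 6 of 18 had an unadjusted p under 0.05 in edgeR, beside 4.09% and 7% of all genes. Of 15 tested partners in apoptosis, 2 were higher and 2 lower between the untreated lines, near the 27.3% of all genes, and both lower calls were lost on leaving out 1 library.

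**Figure D4:**
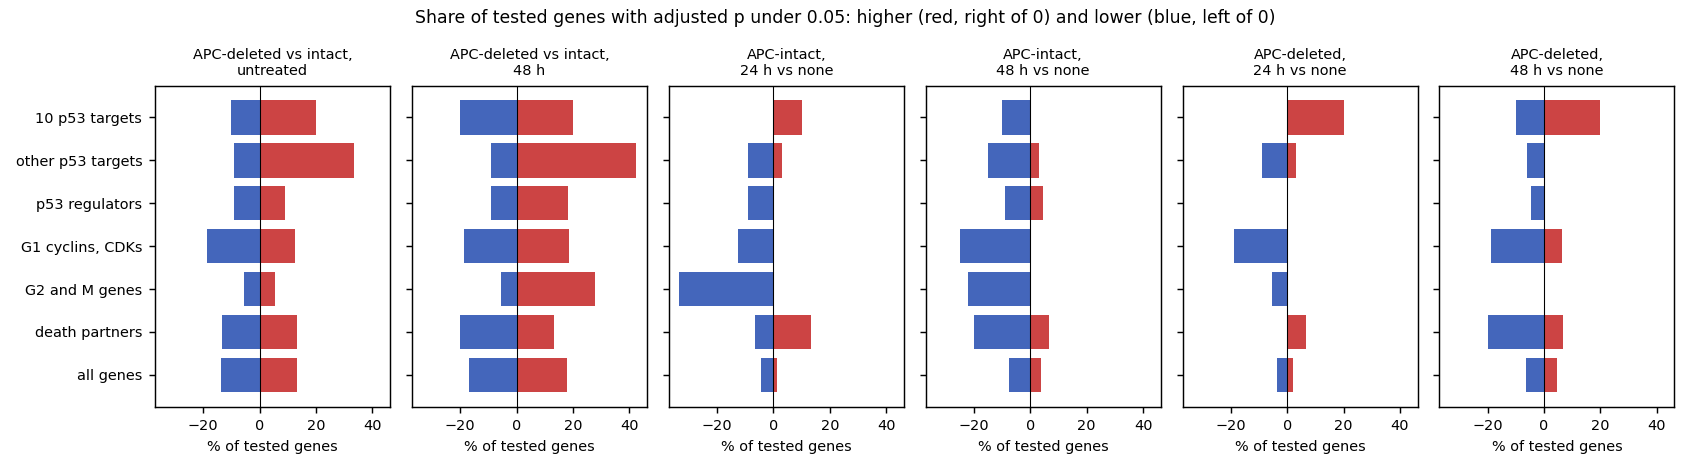
Percent of tested genes with an edgeR adjusted p under 0.05 (horizontal axis; higher to the right of 0, lower to the left) for 6 gene lists and for all genes, in 6 comparisons. The 10 p53 targets lie near the bar of all genes between the untreated lines, and the other p53 targets reach further to the right.

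For the 4 genes whose group means spanned at least 0.5 (log2), the genes of most similar pattern were found by the root mean square difference of centred log2 CPM over 18 libraries, among 1562 genes. They included Vac14 (0.067), Zfand2a (0.075) and Cr1l (0.075) for Cdkn1a, Reep6 (0.103) and Hip1r (0.124) for Bbc3, A830080D01Rik, Mbtps2 and Mospd2 (0.129 to 0.148) for Trp53inp1, and Icosl, Adamts7 and Nfkbia (0.146 to 0.157) for Fas.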

How the data were processed

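For each of 18 libraries the authors deposited read counts by gene. STAR, HTSeq and the mm10 build are named in the submitters' processing notes; versions, strandedness and annotation release are not given in the sources used here. Exon length per gene, another deposited value (other unit), was used for levels per kilobase. Entries naming no gene (22.9 to 25.5% of each total) were left out. Genes were filtered with filterByExpr (15006 kept) and tested with edgeR 4.0.16 (R 4.3.3; TMM, robust quasi-likelihood, 1 coefficient per group, all 18 libraries, Benjamini-Hochberg, threshold 0.05). SE is the log2 fold change divided by the root of F. Replicates differed by more than sampling noise (chi-square per degree of freedom 7.9 to 81). On simulated data of 14782 genes for 24 h in APC-intact cells, edgeR made 7 false calls. It recovered 90% of 100 genes altered 1.5-fold and 95% of 100 altered 2-fold. These figures hold for the simulated libraries only. Folds under 1.5 were not simulated, so recovery of changes as small as that of Bbc3 in this comparison (1.29-fold) was not tested. Of the calls reported for the targets, only that of Trp53inp1 between the lines at 48 h (1.85-fold) was larger than 1.5-fold.

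Named genes are the 10 targets, Trp53, Mdm4, Cdkn2a, Tdo2 and Apc, genes of like pattern, and some of up to 4 genes per list and comparison with adjusted p under 0.05, at least 1 CPM and no overlap, by size. Apc was named outside that rule, as the deleted gene. Some genes that the rule admits are not reported here. The genes and lists were chosen with earlier results of these data known. GC content is of the longest GENCODE M21 transcript. Alternatives were DESeq2 1.42.0, other size factors, no filter, a replicate block, only the groups compared, GC offsets and leaving out libraries. Single libraries were left out only from the groups that a comparison used. Python 3.11.15, numpy 2.4.6, pandas 2.3.3, scipy 1.17.1 and matplotlib 3.10.9 were used.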

Additional observations from a re-analysis of the deposited data

How the results depend on the processing

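Of 90 values of the 10 p53 targets, 28 with an unadjusted p under 0.05 were followed, and 0 of these turned sign under any alternative; of the other 62, 30 did, none while called. Of 14 calls 6 held whenever 1 library was left out. Comparisons are named in the order lines untreated, APC-intact 24 h, 48 h, APC-deleted 24 h, 48 h, lines at 48 h, APC-deleted 48 against 24 h, difference at 24 h and at 48 h. Leaving out 1 library in turn gave 2 to 3, 0 to 2, 1 to 2, 0 to 1, 0 to 3, 3 to 5, 0 to 1, 0 to 0 and 0 to 0 of the 10 genes, and 3101 to 3579, 364 to 1259, 822 to 1409, 428 to 533, 882 to 2816, 4231 to 5219, 47 to 193, 1 to 2 and 0 to 3 of all genes. A group left with 1 or 2 libraries was assumed to vary like the others.

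Counts of the 10 genes that moved by over 1.5 times were these. With no filter APC-deleted 24 h gave 0, 48 h 1 and 48 against 24 h 1. With DESeq2 APC-intact 48 h gave 2 and 48 against 24 h 2. With only the groups compared the untreated lines gave 5, APC-intact 24 h 0 and 48 h 5, and APC-deleted 24 h 4 and 48 h 0. Without both libraries that stand apart (APC-intact 24 h replicate 1, APC-deleted 48 h replicate 2) APC-intact 24 h gave 0 and 48 against 24 h 1. Without these and APC-intact 24 h replicate 2, chosen after seeing the data, APC-intact 24 h gave 0, APC-deleted 48 h 5 and 48 against 24 h 4. With GC offsets, chosen after seeing the data, the untreated lines gave 5, APC-intact 24 h 3 and 48 h 3, and 48 against 24 h 1. For all genes, no filter gave 14 for the 48 h difference; DESeq2 gave 1370 for APC-deleted 24 h, 189 for 48 against 24 h, and 5 and 57 for the differences. Only the groups compared gave 258, 4367, 2473 and 433 for the 4 treatments, 22 for 48 against 24 h and 0 for the 48 h difference. Without both libraries APC-deleted 48 h gave 3009, 48 against 24 h 221 and the 48 h difference 2; without all 3 they gave 4362, 1442 and 34, with 2212 for APC-intact 24 h and 4 for the 24 h difference. GC offsets gave 1358 for APC-intact 24 h, 1419 for APC-deleted 24 h, 144 for 48 against 24 h and 15 for the 48 h difference. The cause was not tested.

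With the replicate block APC-intact 48 h gave 2 of the 10 genes and APC-deleted 48 against 24 h 1. The labels do not say whether libraries of the same replicate number belong together. Deviations of same-numbered libraries correlated at -0.0883 to 0.237, and 12 of 18 libraries correlated best with their own number. How many would do so by chance was not worked out, and a link by number was not tested.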
